A study of Mus musculus with 2 samples.

Results

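The 6 genes described here, Wt1, Gata4, Gata6, Tcf21, Bnc1 and Tbx18, encode transcription factors known from the mesothelium, the flat epithelium that covers the abdominal organs and fat pads, and from the connective tissue beneath it. They were chosen by name for that role, with earlier results of these data known, and all 6 were found by symbol among the 32285 genes of the count matrices. Their counts were read in cells with 500 to 40000 unique molecular identifiers (UMIs, 1 per captured RNA molecule) and a mitochondrial share under 12.5%, within cell types defined by other marker genes.

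The cells came from perigonadal white adipose tissue (gWAT) of male Cyp1a1 fate reporter mice (Cyp1a1Cre x R26LSL-eYFP), in which Cre made from the Cyp1a1 locus switches on eYFP permanently, so that eYFP marks any cell in which that locus was ever active. The LFD group ate a purified diet with 10% fat and the HFD group a purified diet with 60% fat, each over 12 weeks, and FICZ, a ligand of the aryl hydrocarbon receptor, was given to all mice at 10 mg/kg with 5 days left until the tissue was taken. Live eYFP+ cells of the stromovascular fraction (SVF), which is what remains once the adipocytes have been floated off, were sorted and sequenced as 1 library per diet with a 10x Genomics 3′ kit. Mice were pooled within a diet and no cell could be traced to a mouse. There were no eYFP- cells and no animals without FICZ, so the values describe labelled cells of treated mice. With 1 library per diet there is no replicate, no test was possible, and every interval given covers counting error only.

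Wt1 is a zinc finger factor of the coelomic epithelium, the embryonic source of mesothelium, and Wt1 lineage tracing is a common way of following visceral fat precursors. Gata4 and Gata6 are zinc finger factors of the heart, gut and coelomic lining that bind GATA motifs, and Gata6 is also the factor that sets the identity of large peritoneal macrophages. Tcf21 is a basic helix-loop-helix factor of visceral mesenchyme and fibroblasts, Bnc1 (basonuclin) is a zinc finger protein of keratinocytes, germ cells and mesothelium, and Tbx18 is a T-box factor of the epicardium and of mural cells, which wrap small vessels.

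Of 11281 LFD barcodes (114311020 UMIs) and 9631 HFD barcodes (119498750 UMIs), 10216 and 8537 cells were kept, with medians of 10636.5 and 13231 UMIs. The libraries shared 27 barcode sequences. Cells were typed by marker UMIs per 10000 UMIs, and those positive for more than 1 lineage (3.07% in LFD, 4.45% in HFD) were left out. Mesenchymal cells formed 4 types. Fibroblastic progenitor-like cells (231 in LFD, 631 in HFD) were high in Dpep1, Pi16, Mmp2 and Fbn1, cycling cells (933 and 566) in division genes, and keratin-high mesothelial-like cells (505 and 657) in Krt7, Krt8, Krt18 and Krt19, and keratin-low stromal cells (4927 and 2570) were the remainder. The keratin boundary was not sharp: 625 of 5432 LFD cells and 828 of 3227 HFD cells on either side of it lay between 4 and 16 keratin UMIs per 10000 around the limit of 8. The summed level of 9 mesothelial markers was 2785 and 3161 counts per 1000000 UMIs (CPM) in the keratin-high cells, 259 and 629 CPM in the keratin-low cells and 37.8 and 122 CPM in the fibroblastic cells, in LFD and HFD. Beside them stood 464 LFD and 460 HFD macrophage-like cells, and B-like cells (1105 and 767) served as a type that should lack all 6 factors. The files held called cells only, so free RNA could not be read from empty droplets.

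UMIs of Wt1 and Gata6 were found in 88.9% to 97.9% of keratin-high, keratin-low and cycling cells and in 64% to 82.7% of fibroblastic cells. Tcf21 was almost restricted to the fibroblastic progenitor-like cells, Bnc1 was highest in keratin-high cells and lowest in fibroblastic cells, Tbx18 stayed within 2-fold between the mesenchymal types, and Gata4 was counted in few cells. Macrophage-like cells held Gata6 at the level of B-like cells. Levels below are UMIs of a gene summed over the cells of a type and divided by all UMIs of those cells, as CPM. They are compared within a gene, except for Gata6 UMIs per Wt1 UMI and where a gene is called scarce, low or most abundant.

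**Figure D1:**
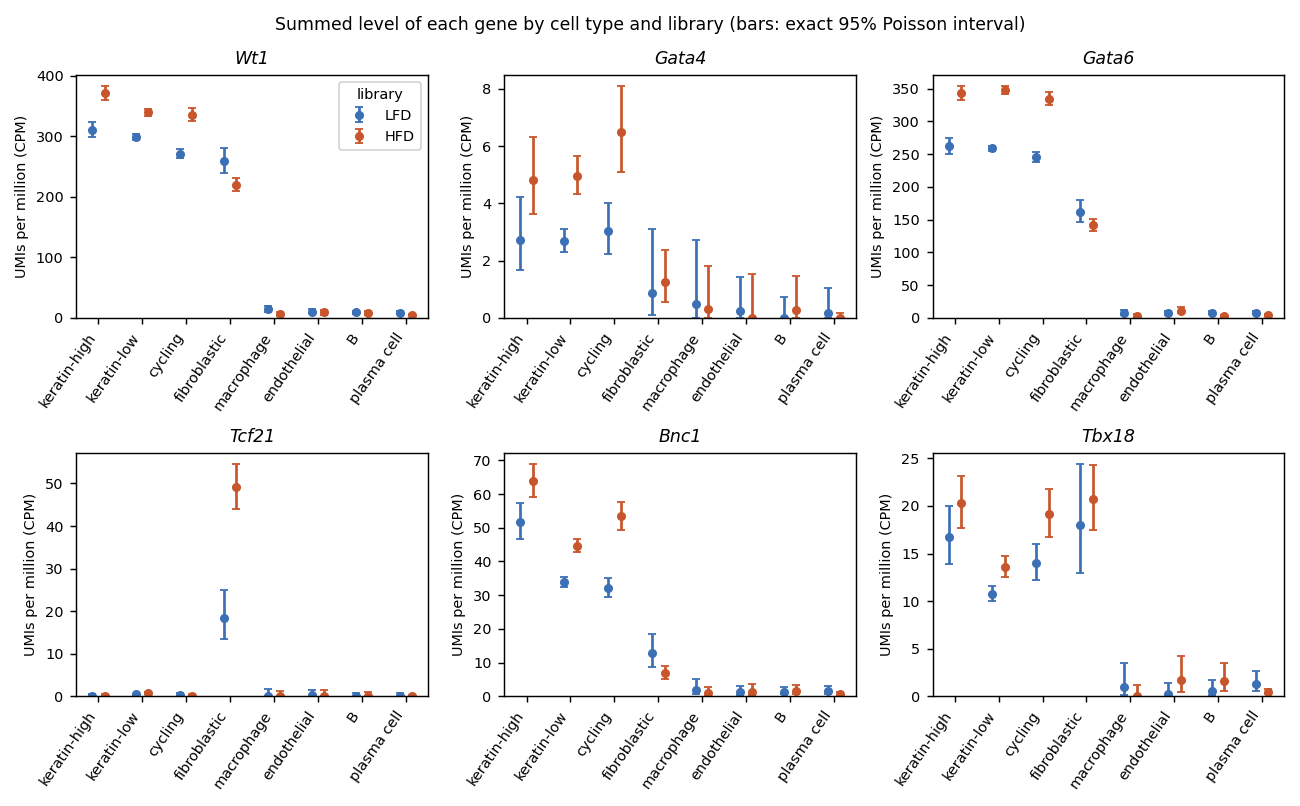
Level of each gene (y axis, CPM from 0) in 8 cell types (x axis) of the LFD (blue) and HFD (orange) libraries, as points with exact 95% Poisson intervals. Wt1 and Gata6 stand between 142 and 371 CPM in the 4 mesenchymal types and under 15 CPM elsewhere, and Tcf21 stands out in the fibroblastic cells at 18.5 CPM (LFD) and 49.1 CPM (HFD).

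Wt1 (ENSMUSG00000016458) lies on chromosome 2, plus strand, at 105126529 to 105173616 of GRCm38. In the LFD library its level was 311 CPM (298 to 324, exact 95% Poisson interval) in keratin-high cells, 298 CPM (294 to 303) in keratin-low cells, 271 CPM (263 to 280) in cycling cells and 259 CPM (239 to 280) in fibroblastic cells. In the HFD library the same order gave 371 CPM (360 to 383), 339 CPM (334 to 345), 335 CPM (325 to 346) and 220 CPM (209 to 231). Neighbours in this order overlapped for the first pair and the last pair in LFD and for keratin-low and cycling cells in HFD. A Wt1 UMI was found in 94.3% and 97.9% of keratin-high cells, 93.2% and 96.6% of keratin-low cells, 95.5% and 97.7% of cycling cells and 82.7% and 78.1% of fibroblastic cells, in LFD and HFD. In B-like cells the share was 4.07% and 3.26%, at 9.22 CPM (6.75 to 12.3) and 7.71 CPM (5.16 to 11.1). Because types differed in depth, cells were also thinned to 2000 UMIs, after which Wt1 was found in 45.5% (95% Clopper-Pearson interval 41.1 to 49.99) of 503 LFD and 48.5% (44.6 to 52.5) of 647 HFD keratin-high cells, 44.7% (43.3 to 46.1) and 48.4% (46.4 to 50.4) of keratin-low cells, and 37.1% (30.7 to 43.8) and 33.5% (29.8 to 37.4) of fibroblastic cells. Thinned B-like cells gave 2.07% and 2.15%.

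Gata6 (ENSMUSG00000005836), on chromosome 18, plus strand, at 11052064 to 11085635, was lowest in fibroblastic cells, as Wt1 was, and fell further there. Its UMIs per Wt1 UMI were 0.868 (0.850 to 0.887) and 1.03 (1.00 to 1.05) in keratin-low cells and 0.627 (0.550 to 0.714) and 0.647 (0.597 to 0.700) in fibroblastic cells of LFD and HFD. Its LFD level was 262 CPM (251 to 274) in keratin-high, 259 CPM (255 to 263) in keratin-low, 246 CPM (238 to 253) in cycling and 162 CPM (146 to 179) in fibroblastic cells. Its HFD level was 343 CPM (332 to 354), 348 CPM (343 to 354), 335 CPM (325 to 345) and 142 CPM (134 to 151). The intervals of keratin-high and keratin-low cells overlapped in both libraries, and the fibroblastic cells stood below the other 3 types without overlap. A Gata6 UMI was found in 88.9% to 96.5% of cells of the first 3 types and in 64.9% and 64% of fibroblastic cells, against 3.62% and 1.17% of B-like cells. After thinning, 18.7% of LFD and 23.3% of HFD keratin-high cells held UMIs of both Wt1 and Gata6, as did 17.7% and 23.4% of keratin-low cells and 14.0% and 7.22% of fibroblastic cells. In keratin-low cells the joint counts, 864 in LFD and 588 in HFD, were 1.03 and 1.01 times those that the separate shares of Wt1 and Gata6 give, and in fibroblastic cells the joint counts, 31 and 44, were 1.44 and 1.17 times. In keratin-low cells Bnc1 with Wt1 stood at 1.09 and 1.02 times, and Bnc1 with Gata6 at 1.11 and 1.03 times.

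Gata4 (ENSMUSG00000021944, chromosome 14, minus strand, 63198922 to 63271692) was scarce. The LFD library gave 20, 167 and 48 UMIs in keratin-high, keratin-low and cycling cells (2.73, 2.68 and 3.03 CPM), and the HFD library 53, 220 and 77 UMIs (4.82, 4.96 and 6.47 CPM). Fibroblastic cells held 2 and 9 UMIs (0.858 and 1.26 CPM), and B-like cells 0 and 1. A Gata4 UMI was seen in 3.17% of LFD and 7.32% of HFD keratin-low cells, so most cells gave no count of this gene at this depth, and the intervals of the keratin-high, keratin-low and cycling cells overlapped within each library.

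Tcf21 and Bnc1 ran opposite to each other across the mesenchymal types. Tcf21 (ENSMUSG00000045680, chromosome 10, minus strand, 22817281 to 22820174) had 43 UMIs in LFD and 351 UMIs in HFD fibroblastic cells, which is 18.5 CPM (13.4 to 24.9) and 49.1 CPM (44.1 to 54.5). Keratin-low cells held 27 and 30 UMIs of it (0.433 and 0.676 CPM), cycling cells 6 and 2, and keratin-high cells 0 and 1. A Tcf21 UMI was found in 31 of 231 LFD and 222 of 631 HFD fibroblastic cells (13.4% and 35.2%), and in 18 of 4927 and 19 of 2570 keratin-low cells. The 0 UMIs of the 505 LFD keratin-high cells allow a level of up to 0.409 CPM and a share of up to 0.594% (3 counts), so the measured fibroblastic level was at least 45.1-fold higher than that floor. The exact 95% interval of the ratio, which also carries the counting error of the 43 UMIs, began at 35.2. Of the 27 UMIs in LFD keratin-low cells, 22 came from cells with 6 to 10 Dpep1, Pi16, Mmp2 and Fbn1 UMIs per 10000, just under the limit of 10 that set the fibroblastic type. In HFD 14 of the 30 came from such cells and 11 from cells with 4 to 6.

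Bnc1 (ENSMUSG00000025105, chromosome 7, minus strand, 81966672 to 81992292) measured 51.8 CPM (46.7 to 57.3) and 63.9 CPM (59.3 to 68.8) in LFD and HFD keratin-high cells. It was lower in keratin-low cells, at 33.9 CPM (32.5 to 35.4) and 44.6 CPM (42.7 to 46.6), and in cycling cells, at 32.1 CPM (29.4 to 35.0) and 53.5 CPM (49.4 to 57.8). Fibroblastic cells held 12.9 CPM (8.69 to 18.4) and 6.85 CPM (5.07 to 9.05), and B-like cells 1.40 and 1.59 CPM. The keratin-high cells thus stood highest and the fibroblastic cells lowest in both libraries, and only keratin-low and cycling cells of the LFD library overlapped. Thinned to 2000 UMIs, 7.95% (5.74 to 10.7) of LFD and 11.7% (9.37 to 14.5) of HFD keratin-high cells held a Bnc1 UMI, against 2.26% (0.739 to 5.20) and 0.328% (0.0398 to 1.18) of fibroblastic cells.

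As these are the members whose levels parted most between types, the 250 bases before their RefSeq start sites (GRCm38.p6) are shown, read 5′ to 3′ along the minus strand. Capitals mark matches to a GATA motif, searched as AGATAA or TGATAA, and also as AGATAG or else TGATAG, on both strands, and to the GC box GGGCGG on both strands.
Tcf21, chr10:22820144-22820393: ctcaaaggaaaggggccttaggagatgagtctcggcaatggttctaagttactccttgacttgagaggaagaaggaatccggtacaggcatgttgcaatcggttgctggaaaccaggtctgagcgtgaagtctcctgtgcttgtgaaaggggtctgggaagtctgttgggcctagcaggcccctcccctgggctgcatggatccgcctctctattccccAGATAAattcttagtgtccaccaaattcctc
Bnc1, chr7:81992300-81992549: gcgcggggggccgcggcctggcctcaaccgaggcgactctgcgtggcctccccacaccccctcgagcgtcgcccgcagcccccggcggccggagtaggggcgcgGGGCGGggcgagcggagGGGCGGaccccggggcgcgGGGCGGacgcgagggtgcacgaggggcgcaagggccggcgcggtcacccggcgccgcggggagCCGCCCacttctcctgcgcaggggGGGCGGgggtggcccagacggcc
The Tcf21 window has a GC content of 52.4%, 5 CpG dinucleotides, 1 GATA match and no GC box. By the GENCODE span given above, which begins at 22820174 on this strand, the end of that window lies inside the gene, and the GATA match with it. The Bnc1 window has a GC content of 83.6%, 39 CpG dinucleotides, 5 GC boxes and no GATA match. Over 32851 such windows the median was 6 CpG dinucleotides, 26.5% held a GATA match and 32.7% a GC box, so the Tcf21 window is ordinary in CpG number and the Bnc1 window rich in it. The Tbx18 window (chr9:87731261-87731510) has 15 CpG dinucleotides and neither motif. A match is a run of letters and no evidence of binding.

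Tbx18 (ENSMUSG00000032419, chromosome 9, minus strand, 87702800 to 87731260) stayed within 2-fold between the mesenchymal types. It measured 16.8 CPM (13.9 to 20) and 20.3 CPM (17.7 to 23.1) in LFD and HFD keratin-high cells and 10.8 CPM (9.97 to 11.6) and 13.6 CPM (12.5 to 14.7) in keratin-low cells. Cycling cells gave 14.0 CPM (12.2 to 16) and 19.2 CPM (16.8 to 21.8), and fibroblastic cells 18 CPM (13.0 to 24.4) and 20.7 CPM (17.5 to 24.3). Keratin-low cells were lowest without overlap in both libraries, and the intervals of the other 3 types overlapped. Macrophage-like cells held 2 and 0 UMIs of Tbx18.

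The contrasts between types were taken within each library, so that diet did not enter them, and a gene was called where it was at least 2-fold apart in the same direction in both libraries with at least 10 UMIs in each. Against keratin-low cells, the fibroblastic cells held Tcf21 at 42.6 times (25.7 to 71.7, exact 95% conditional interval) the level in LFD and 72.5 times (49.9 to 109) in HFD. Bnc1 stood at 0.379 (0.255 to 0.543) and 0.154 (0.113 to 0.204) of the keratin-low level, and Gata4 at 0.320 (0.0385 to 1.18) and 0.254 (0.114 to 0.490). That makes 1 of 6 genes called higher and 2 of 6 called lower, where 7.09% of the 14842 genes counted were called higher and 5.58% lower, and the Gata4 call rests on 2 and 9 UMIs in the fibroblastic cells, with an LFD interval that includes 1. Gata6, at 0.626 (0.564 to 0.693) and 0.409 (0.383 to 0.435), and Wt1, at 0.867 (0.798 to 0.940) and 0.648 (0.615 to 0.683), were lower in fibroblastic cells beyond counting error in both libraries without reaching 2-fold in both. Tbx18 was 1.67 times (1.20 to 2.29) and 1.52 times (1.26 to 1.82) the keratin-low level. The 10 macrophage markers together made 48.9 and 35.9 CPM in fibroblastic and 128 and 112 CPM in keratin-low cells. In macrophage-like cells they made 25998 and 25806 CPM. The 8 endothelial markers made 33.9 and 54.7 CPM in fibroblastic against 50.5 and 65.3 CPM in keratin-low cells. The 8 T cell markers went the other way, at 23.6 and 79.8 CPM in fibroblastic against 9.228 and 8.003 CPM in keratin-low cells. Whether T cell RNA had a part in the fibroblastic levels was not tested.

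**Figure D2:**
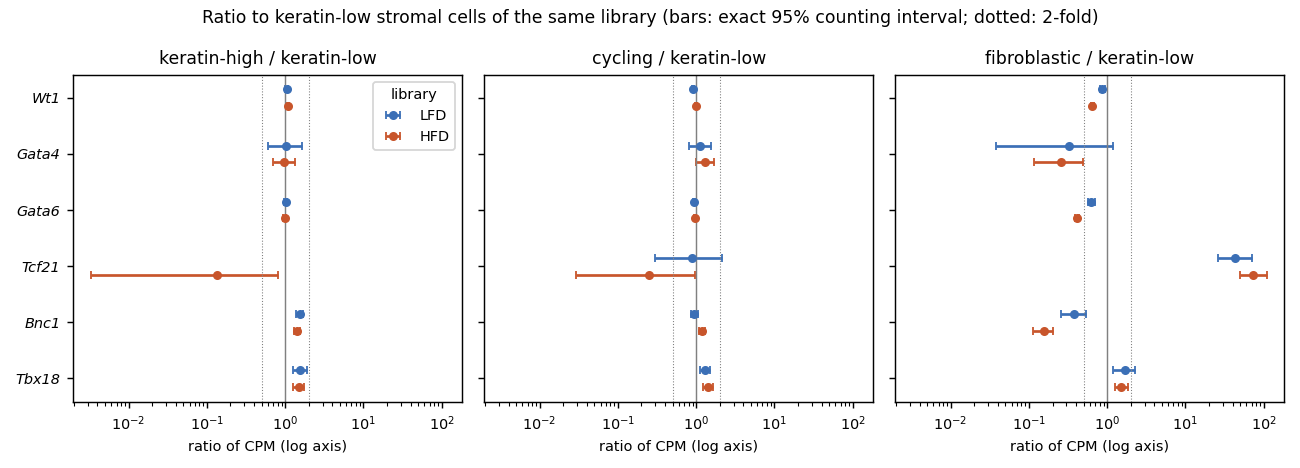
Ratio of CPM to that in keratin-low stromal cells of the same library (x axis, log scale) for the 6 genes in keratin-high, cycling and fibroblastic cells, with exact 95% counting intervals and dotted lines at 2-fold. Tcf21 lies at 42.6 and 72.5 in fibroblastic cells and Bnc1 at 0.379 and 0.154, and Tcf21 in LFD keratin-high cells, with 0 UMIs, has no point.

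Between keratin-high and keratin-low cells Wt1 differed by a ratio of 1.04 (0.996 to 1.09) in LFD and 1.09 (1.06 to 1.13) in HFD, and Gata6 by 1.01 (0.965 to 1.06) and 0.985 (0.951 to 1.02). Over the same boundary the 5 mesothelial markers that are no keratins, and so did not set it, changed from 159 to 882 CPM in LFD and from 456 to 1457 CPM in HFD. Bnc1 was 1.53 times (1.36 to 1.70) and 1.43 times (1.31 to 1.56) higher in the keratin-high cells and Tbx18 1.56 times (1.27 to 1.89) and 1.49 times (1.27 to 1.74), both beyond counting error and under 2-fold. The single gene called was Tcf21, lower in keratin-high cells at 0 against 27 UMIs and 1 against 30, where 6.02% of 14840 genes were called in either direction. Its LFD interval reached 1.24, so that difference is at the edge of what the depth can show. In cycling against keratin-low cells none of the 6 genes was called (6.64% of 14916 genes were), and Tbx18 was 1.30 times (1.11 to 1.52) and 1.41 times (1.21 to 1.65) higher.

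Because the type limits cut through continuous marker levels, the genes were also read along the markers themselves. Along keratin, from cells with no keratin UMI to cells with at least 32 per 10000, Bnc1 went from 29.1 CPM (27.3 to 30.9) to 72.9 CPM (56.3 to 93.0) in the LFD library. The HFD values were 41.5 CPM (38.3 to 44.8) and 79.1 CPM (61.6 to 100.1). Tbx18 went from 10.5 CPM (9.50 to 11.7) to 18 CPM (10.3 to 29.2) and from 12.2 CPM (10.5 to 14.1) to 26.4 CPM (16.7 to 39.6). Wt1 kept within 291 to 331 CPM over the 7 LFD bins and within 317 to 380 CPM over the 7 HFD bins. Gata6 was lower in the highest keratin bin, at 204 CPM (176 to 236) in LFD, than in cells with 8 to 16 keratin UMIs per 10000, at 281 CPM (265 to 298), and in HFD at 300 CPM (265 to 339) against 355 CPM (341 to 370).

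Along Dpep1, Pi16, Mmp2 and Fbn1, Tcf21 went up and Bnc1 and Gata6 went down beyond counting error in both libraries. In HFD Tbx18 also went up and Wt1 and Gata4 down beyond it, whereas the LFD intervals of these 3 genes at both ends overlapped. From the lowest bin (under 2 per 10000) to the highest (at least 24), Tcf21 went from 0 to 60.1 CPM (32 to 103) in the LFD library and from 0.137 to 63.8 CPM (55.9 to 72.5) in HFD, and Tbx18 from 9.78 to 23.1 CPM (7.50 to 53.9) and from 12.5 to 24.8 CPM (20.0 to 30.4). Bnc1 went from 34.0 CPM to 0 UMIs in 26 LFD cells and from 46.3 CPM to 1 UMI in 355 HFD cells (0.269 CPM). Gata6 went from 252 to 143 CPM (97.4 to 203) and from 339 to 108 CPM (97.6 to 119), and Wt1 from 293 to 245 CPM (184 to 320) and from 338 to 202 CPM (188 to 217). Gata4 went from 2.69 CPM (2.14 to 3.33) and 6.09 CPM (4.89 to 7.50) to 0 UMIs in both libraries, where the upper bounds are 17.1 CPM in LFD and 0.993 CPM in HFD. In B-like cells Wt1 stood at 9.22 and 7.71 CPM and Bnc1 at 1.40 and 1.59 CPM, so the highest bin was far above the B-like level for Wt1, and in HFD not above it for Bnc1.

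**Figure D3:**
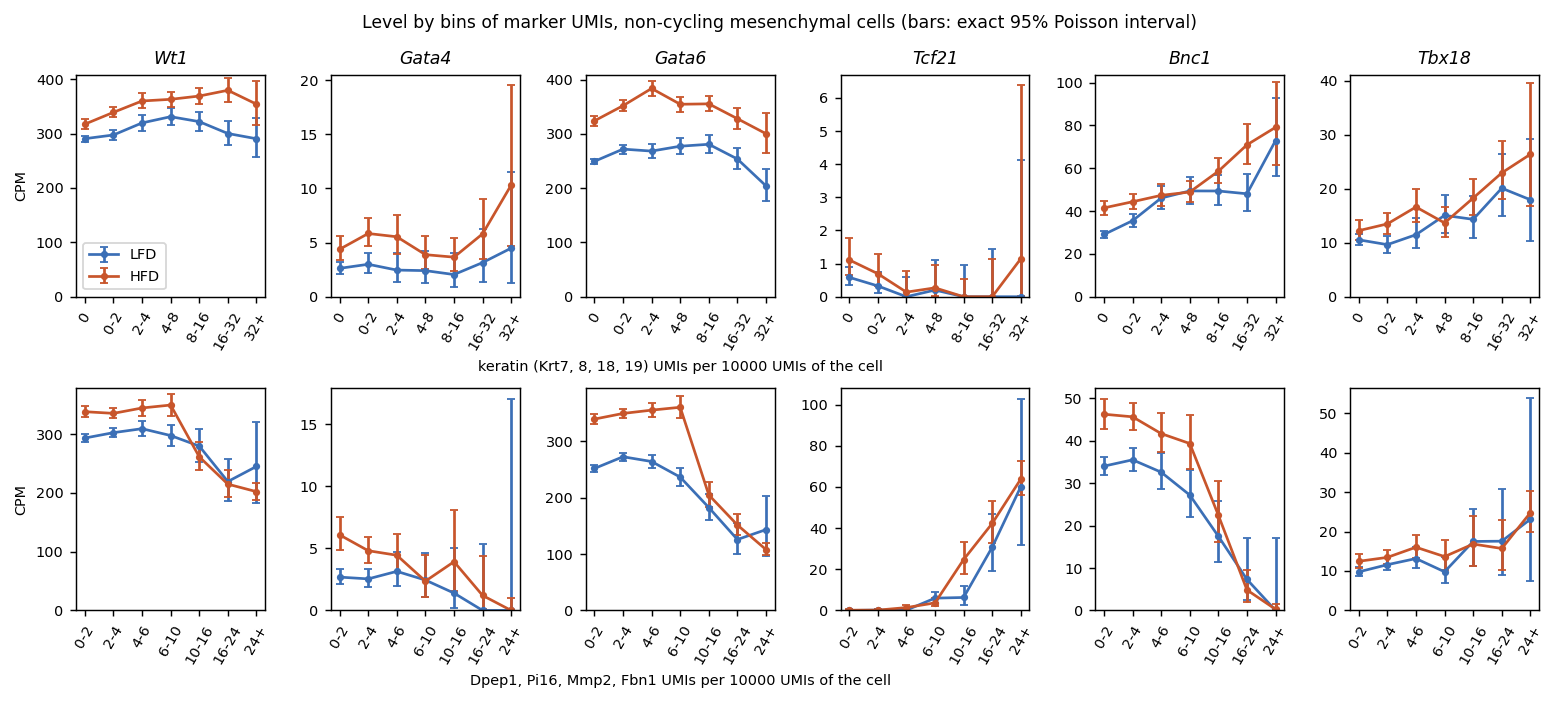
CPM of the 6 genes (y axes from 0) in bins of keratin UMIs per 10000 (top row, keratin-high and keratin-low cells) and of Dpep1, Pi16, Mmp2 and Fbn1 UMIs per 10000 (bottom row, keratin-low and fibroblastic cells), for LFD (blue) and HFD (orange), with exact 95% Poisson intervals. Along the second axis Tcf21 goes up to 60.1 and 63.8 CPM while Bnc1 goes down to 0 and 0.269 CPM, and Wt1 stays at 202 CPM or more.

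Within the fibroblastic type, cells with a Tcf21 UMI (31 in LFD, 222 in HFD) still held Wt1, at 193 CPM (149 to 247) and 189 CPM (172 to 206), against 270 CPM (247 to 293) and 239 CPM (224 to 253) in cells without one. Gata6 measured 87.6 CPM (58.7 to 126) and 119 CPM (106 to 133) with Tcf21, and 175 CPM (157 to 194) and 156 CPM (145 to 168) without. Bnc1 measured 3.02 and 2.62 CPM with and 14.5 and 9.36 CPM without, from 1 and 7 UMIs in the former. Dpep1, a marker of the type, was 489 and 558 CPM in the cells with Tcf21 and 260 and 432 CPM in those without, so the split follows the marker axis too. Among fibroblastic cells of at least 10000 UMIs, where absence of a count means more, 16 of 19 LFD and 118 of 138 HFD cells with Tcf21 also had Wt1 (84.2% and 85.5%), against 90.8% of 109 and 87.7% of 359 such cells of the type as a whole. Wt1 and Tcf21 were therefore counted together in single cells.

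The diet comparison asked how the levels in eYFP+ cells of HFD-fed mice stood to those of LFD-fed mice, within a type. A gene was called at 1.5-fold or more with at least 10 UMIs over both libraries. In the keratin-high, keratin-low and cycling cells the ratios of Wt1, Gata6, Gata4 and Bnc1 were above 1 with intervals clear of it, while the intervals of Tbx18 in keratin-high and Tcf21 in keratin-low cells included 1. The makeup of the types moved with diet: cells with no keratin UMI were 56.0% of LFD and 29.4% of HFD keratin-high and keratin-low cells together. That share also depends on depth, with medians of 12070 UMIs in LFD and 17369.5 UMIs in HFD keratin-low cells. As a measure set against all UMIs, the summed level of the 9 mesothelial markers was 259 and 629 CPM in keratin-low and 616 and 1198 CPM in cycling cells. The ratios of keratin-high and keratin-low cells were therefore also read within keratin bins, and the part of this shift in the ratios of cycling cells, Bnc1 among them, was not tested. Wt1 had ratios of HFD to LFD of 1.19 (1.13 to 1.26), 1.14 (1.11 to 1.16) and 1.24 (1.18 to 1.29) in these 3 types. Gata6 had ratios of 1.31 (1.24 to 1.38), 1.34 (1.31 to 1.37) and 1.36 (1.30 to 1.43). The median ratio over all genes counted was 1.10, 1.06 and 1.08 in the same types, and with median-ratio scaling Wt1 stood at 1.10, 1.06 and 1.13 and Gata6 at 1.20, 1.26 and 1.25. The scaling lowered ratios by 0.13, 0.10 and 0.13 on the log2 scale and turned no direction, but in keratin-high cells the scaled intervals of Gata4 (0.954 to 2.87) and Bnc1 (0.997 to 1.29) included 1.

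Gata4 had the largest ratios of the 6 in these 3 types among those with at least 10 UMIs, at 1.77 (1.04 to 3.13), 1.85 (1.51 to 2.28) and 2.14 (1.47 to 3.13). In keratin-low cells with under 5% mitochondrial UMIs it was 2.82. Within keratin bins Gata4 stood at 1.67 (1.20 to 2.31) with no keratin UMI and 1.95 (1.34 to 2.86) under 2 per 10000. From 2 to 4 it was 2.25 (1.22 to 4.39). In the bins from 4 upward it ranged from 1.61 (0.798 to 3.47) to 2.30 (0.642 to 10.2), with intervals that include 1. In cells with 6 to 10 Dpep1, Pi16, Mmp2 and Fbn1 UMIs per 10000 it was 0.965 (0.339 to 2.74). Bnc1 stood at 1.23 (1.09 to 1.40), 1.31 (1.24 to 1.40) and 1.66 (1.48 to 1.87), and Tbx18 at 1.21 (0.967 to 1.52), 1.26 (1.13 to 1.41) and 1.37 (1.13 to 1.65). Within the 7 keratin bins Wt1 ranged from 1.09 to 1.26 and Gata6 from 1.27 to 1.47, with each interval clear of 1. These bin ratios were not scaled, and the median gene ratio used for scaling was 1.07 in keratin-low and 1.09 in keratin-high cells. The Wt1 interval began below 1.07 in cells with no keratin UMI, at 1.06, and in those with 4 to 8 per 10000, at 1.03. Bnc1 had no single direction along keratin. Its ratio was clear of 1 in cells with no keratin UMI, at 1.43 (1.29 to 1.58), in those with under 2 per 10000, at 1.25 (1.11 to 1.40), and in those with 16 to 32, at 1.48 (1.18 to 1.85). In the bins from 2, 4, 8 and 32 it was 1.03 (0.875 to 1.21), 0.990 (0.840 to 1.17), 1.19 (0.997 to 1.42) and 1.08 (0.762 to 1.55). Tbx18 was clear of 1 in 2 of the 7 bins, at 1.40 (1.12 to 1.74) under 2 and 1.45 (1.07 to 1.97) from 2 to 4 per 10000, and in the other 5 it ranged from 0.907 (0.667 to 1.24) to 1.47 (0.743 to 2.97). Tcf21 was past 1.5-fold in keratin-low cells at 1.56, from 27 and 30 UMIs, with an interval of 0.897 to 2.73 that includes 1, and with median-ratio scaling it fell below that limit, at 1.46. Its ratio had no single direction along Dpep1, Pi16, Mmp2 and Fbn1 in these cells. From 6 to 10 per 10000 it was 0.614 (0.290 to 1.25), and from 4 to 6 there was 1 UMI in LFD and 11 in HFD. The genes called higher were 1 of 5 in keratin-high cells (Gata4), 2 of 6 in keratin-low cells (Gata4, Tcf21) and 2 of 5 in cycling cells (Gata4, Bnc1), and none was called lower. Of all counted genes 13.4%, 9.63% and 10.3% were called higher and 5.52%, 10.7% and 9.46% lower, and with 5 or 6 members a share cannot be told from that background. The median ratio of the members was 1.23, 1.33 and 1.37.

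The fibroblastic type differed. Wt1 had a ratio of 0.850 (0.773 to 0.935) and Gata6 of 0.876 (0.778 to 0.989) there, Bnc1 of 0.532 (0.331 to 0.868) and Tcf21 of 2.66 (1.93 to 3.74), while Tbx18 stood at 1.15 (0.810 to 1.66). Tcf21 was called higher and Bnc1 lower, in a type where 18.2% of genes were called higher and 7.93% lower. The makeup of the type along its own markers differed between the libraries. Cells with at least 24 marker UMIs per 10000 were 11.3% (7.49 to 16.1) of the LFD and 56.3% (52.3 to 60.2) of the HFD fibroblastic cells, and cells with 10 to 16 were 57.1% (50.5 to 63.6) and 20.4% (17.4 to 23.8).

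Read within those 3 marker bins, the intervals of the diet ratios were wider and included 1 for Wt1, Gata6 and Tbx18 in each bin. Gata6 had ratios of 1.12 (0.954 to 1.32) from 10 to 16 per 10000, 1.20 (0.940 to 1.56) from 16 to 24 and 0.753 (0.522 to 1.12) in the highest bin, so that in the lower 2 bins it lay on the other side of 1 from its value of 0.876 over the whole type. In the highest bin Tcf21 had a ratio of 1.06 (0.609 to 2.02) and Wt1 of 0.825 (0.624 to 1.11), with 26 LFD cells, and from 16 to 24 per 10000 Tcf21 had 1.38 (0.835 to 2.36), Bnc1 0.660 (0.191 to 2.57) and Wt1 0.980 (0.807 to 1.19). From 10 to 16 per 10000 Tcf21 remained apart, at 6.29 CPM from 9 UMIs in LFD and 24.7 CPM from 44 UMIs in HFD, a ratio of 3.92 (1.89 to 9.14), while Bnc1 stood at 1.28 (0.760 to 2.21) and Wt1 at 0.935 (0.816 to 1.07). In the adjacent bin of keratin-low cells, from 6 to 10, Tcf21 lay on the other side of 1, at 0.614 (0.290 to 1.25). With the limit of the type raised from 10 to 16 marker UMIs per 10000, the Tcf21 ratio became 1.51 and the Bnc1 ratio 0.302, and with cells of under 5% mitochondrial UMIs alone (49 in LFD, 252 in HFD) the Tcf21 ratio was 1.74. In the bins under 10, by contrast, Wt1 and Gata6 were higher in HFD beyond counting error in all 4, from 1.11 (1.07 to 1.15) to 1.17 (1.08 to 1.27) for Wt1 and from 1.28 (1.24 to 1.33) to 1.52 (1.40 to 1.66) for Gata6. These ratios were not scaled either, and the median gene ratio was 1.07 in keratin-low cells.

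**Figure D4:**
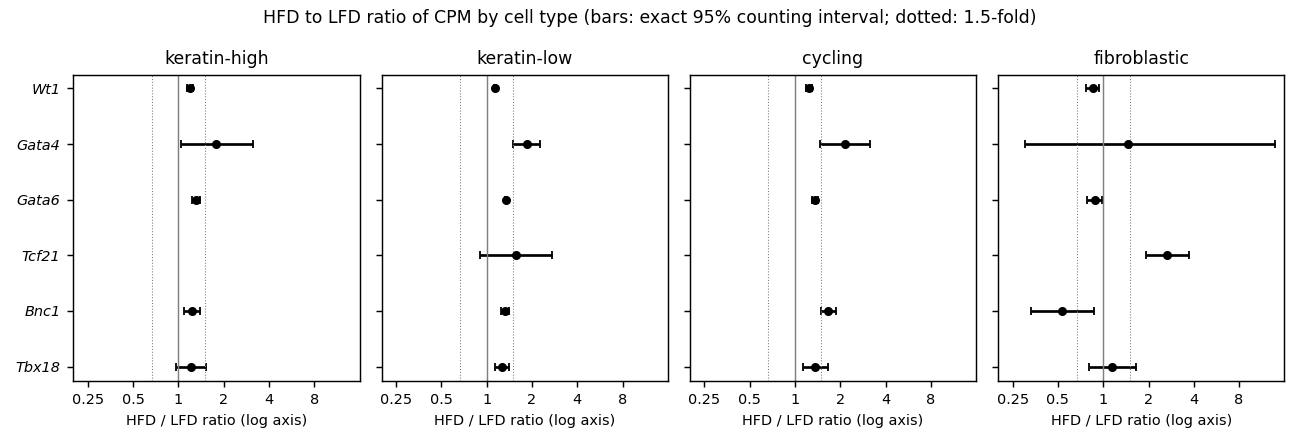
Ratio of CPM in the HFD library to that in the LFD library (x axis, log scale) for each gene in the 4 mesenchymal types, with exact 95% counting intervals and dotted lines at 1.5-fold, drawn where both libraries together held at least 10 UMIs. Wt1 and Gata6 lie above 1 in keratin-high, keratin-low and cycling cells (1.14 to 1.36) and below 1 in fibroblastic cells (0.850 and 0.876), where Tcf21 lies at 2.66.

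Gata6 was examined in macrophage-like cells because it marks the large macrophages of the peritoneal cavity, which bathes this fat pad. It gave 16 UMIs in 16 of 464 LFD cells and 9 UMIs in 9 of 460 HFD cells, and no cell held more than 1. The level was 7.86 CPM (4.49 to 12.8) and 2.94 CPM (1.34 to 5.58), against 8.21 CPM (5.89 to 11.1) and 2.39 CPM (1.09 to 4.54) in B-like cells. The ratio of macrophage-like to B-like cells was thus 0.957 (0.501 to 1.74) and 1.23 (0.432 to 3.50), and both types stood near 3% of the mesenchymal level in LFD and under 1% in HFD. The share of cells with a Gata6 UMI, 3.45% and 1.96%, was like that in B-like cells, 3.62% and 1.17%. Median depths were 4422.5 and 6333.5 UMIs in macrophage-like cells and 4012 and 4178 UMIs in B-like cells. Endothelial-like cells held Gata6 at 7.69 and 11.2 CPM and plasma cell-like cells at 7.69 and 4.38 CPM. Whether the UMIs in macrophage-like cells were their own or free RNA was not tested. The level changed with the choice of cells, to 3.64 CPM in LFD with a mitochondrial share under 5% and to 11.8 CPM in HFD with cells positive for more than 1 lineage kept. Wt1 stood at 14.2 CPM (9.54 to 20.5) and 6.21 CPM (3.74 to 9.70) in the macrophage-like cells, 1.55 times (0.937 to 2.51) and 0.806 times (0.427 to 1.49) the B-like level.

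Of 12 other genes known from large peritoneal macrophages, 7 had at least 10 UMIs over both types and libraries, and 4 of these stood above their B-like level in macrophage-like cells without overlap in at least 1 library, as did 29.9% of 12632 genes. Vsig4, a complement receptor, did so in both, with 5 UMIs (2.46 CPM, 0.798 to 5.73) in LFD and 97 UMIs (31.7 CPM, 25.7 to 38.7) in HFD against 0 UMIs in B-like cells. Timd4, a receptor for dying cells, did so in HFD, with 10 UMIs (3.27 CPM, 1.57 to 6.01) against 0, and had 1 UMI in LFD. Cd5l, a secreted macrophage protein, did so in LFD, with 13 UMIs (6.39 CPM, 3.4 to 10.9) against 1, and had 7 UMIs in HFD. Serpinb2, a serine protease inhibitor, did so in LFD at 194.5 against 77.7 CPM, and in HFD stood at 35.3 against 43.3 CPM, beside 2775 and 2762 CPM in keratin-low cells. Alox15, a lipoxygenase, had 0 UMIs in both libraries, Selp 0 and 1, Garnl3 1 and 2, Ltbp1 0 and 3, F5 1 and 7, Prg4 8 and 6 and Naip1 9 and 16. Icam2, at 11.8 and 8.82 CPM, stood below its level in B-like cells (23.6 and 18.6 CPM). Adgre1, a defining gene of tissue macrophages, stood at 534 and 505 CPM.

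**Figure D5:**
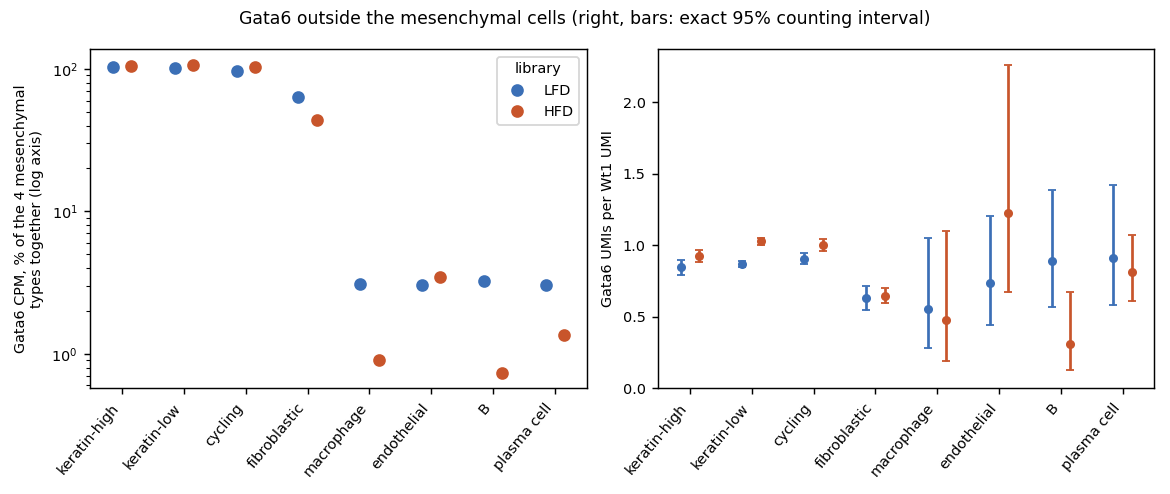
Left, Gata6 CPM as a percentage of the level in the 4 mesenchymal types together (y axis, log scale) and right, Gata6 UMIs per Wt1 UMI (y axis from 0, with exact 95% counting intervals), by cell type and library. Macrophage-like cells lie at 3.09% in LFD and 0.904% in HFD, beside B-like cells at 3.23% and 0.735%.

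Relatives of the 6 genes, taken from lists of their families, were counted by the same rules. Of the GATA family and its Fog cofactors, 5 of 6 genes were counted in the fibroblastic contrast, and 1 was called lower there and none higher (5.58% and 7.09% of all counted genes). That gene was Gata5, the third coelomic GATA factor, at 28.6 and 37.1 CPM in keratin-high cells, 12.3 and 23.8 CPM in keratin-low cells and 4.29 and 5.17 CPM in fibroblastic cells. Its HFD to LFD ratio in keratin-low cells was 1.93 (1.76 to 2.12), near that of Gata4. Zfpm2 (Fog2), the cofactor that binds GATA4, had 48.5 and 74.9 CPM there, a ratio of 1.55 (1.47 to 1.62), and Zfpm1 (Fog1) 53.1 and 70.2 CPM, a ratio of 1.32 (1.26 to 1.39). Over the list, 3 of 5 genes were called higher and 1 lower in HFD keratin-low cells, where 9.63% of all counted genes were called higher and 10.7% lower, with a median ratio of 1.55 beside 1.06 for all genes. Gata2 had 4.65 and 3.07 CPM, a ratio of 0.659 (0.533 to 0.810).

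Among the basic helix-loop-helix relatives of Tcf21, 3 of 6 counted genes were called higher and 1 lower in fibroblastic cells, beside 7.09% and 5.58% of all counted genes. Twist2, a mesenchymal factor, was 2.37 and 6.51 times its keratin-low level there, and Hand2, a factor of heart and limb mesenchyme, was 0.396 and 0.167 of it. Twist1, the most abundant of the list, was nearly level at 1.12 and 1.00. In HFD against LFD keratin-low cells none was called higher and 1 lower (9.63% and 10.7% of all counted genes), Twist2 at 0.587 (0.485 to 0.707), with a median of 1.03. Of the T-box family 3 genes were counted in the fibroblastic contrast, with 1 called higher and 1 lower (7.09% and 5.58% of all counted genes). Tbx4, a limb and lung factor, was the lower one, with 0 and 1 UMIs in fibroblastic cells. Tbx3 stood at 8.58 and 7.27 CPM in fibroblastic cells, 3.16 and 4.96 times the keratin-low level, and in keratin-low cells 3 of 5 were called lower in HFD (10.7% of all counted genes), with a median of 0.540, at low levels (Tbx3 at 2.71 and 1.47 CPM). Tbx18 itself had a ratio of 1.26 there.

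Of 6 partners of Wt1 and of basonuclin none was called in the fibroblastic, keratin-high or keratin-low diet contrast, which for so few genes cannot be told from the background of 7.09% higher and 5.58% lower, 6.02% in either direction, and 9.63% higher and 10.7% lower. Their median diet ratio was 1.03, and Wtap, an RNA methylation subunit first found through WT1, had 40.8 and 48.3 CPM in keratin-low cells. Of 19 transcription factors of the coelom and visceral stroma, 18 were counted in the fibroblastic contrast, with 3 called higher and 1 lower (7.09% and 5.58% of all counted genes), and none of 18 was called higher by diet in keratin-low cells and 2 lower (9.63% and 10.7%). Among them Meis2 (205 and 225 CPM in LFD and HFD keratin-low cells), Meis1 (97.6 and 92.8) and Hoxc8 (64.1 and 58.4), all homeodomain factors, were within 1.5-fold between diets there. Factors of subcutaneous fat were low, the highest being Hoxc9 at 13.4 and 12.3 CPM, and of 5 counted in the fibroblastic contrast 1 was called higher and 1 lower (7.09% and 5.58% of all counted genes). En1 was 10.0 and 13.6 times its keratin-low level in fibroblastic cells, from 12 and 33 UMIs, and Irx5, named after its values were seen, had 0 and 2 UMIs there. By diet, 2 of 6 were called higher and 3 lower in keratin-low cells (9.63% and 10.7%).

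Of 12 genes reported as targets of Wt1 or GATA factors in coelomic tissue, 3 were called higher in HFD keratin-low cells and 2 lower, beside 9.63% and 10.7% of all counted genes, with a median of 1.20 beside 1.06 for all genes. Aldh1a1, a retinaldehyde dehydrogenase, had 127 and 270 CPM, a ratio of 2.12 (2.06 to 2.19), and its relative Aldh1a2 97.7 and 133 CPM, a ratio of 1.36 (1.31 to 1.41). Wnt4, a signalling ligand of the mesothelium and gonad, was level in keratin-low cells at 606 and 600 CPM and lower in HFD in fibroblastic cells at 540 and 233 CPM, a ratio of 0.432 (0.401 to 0.465). Rspo1, an enhancer of Wnt signalling, was 1.69 and 2.56 times higher in keratin-high than in keratin-low cells. Wt1os, the antisense transcript that starts beside Wt1 (chromosome 2, minus strand, 105076538 to 105126510), had 16.2 and 21.6 CPM in keratin-low cells, a ratio of 1.33 (1.21 to 1.45), and 8.58 and 7.27 CPM in fibroblastic cells. The annotated spans of Wt1os and Wt1 do not overlap, and whether counting used strand was not given in the sources used here.

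The genes most like each member were sought over 18 sums, 9 types in each of 2 libraries, by Pearson correlation of log2(CPM + 1) among 13138 genes, as a description of points that share libraries and free RNA. Closest to Wt1 were Gpr39, Tmeff2, Col6a2, Creb3l1 and Nnmt (r from 0.994 to 0.993), and closest to Gata6 were Nnmt, Wt1 itself (0.990), Flnc, Tmeff2 and Hspb2. Tcf21 kept other company: Ism1, Srpx2, Pi15, C7 and Serpina3c (0.994 to 0.991). Bnc1 was closest to Tmem108, Pcnx2, Adgrb2, Nkain4 and 2310030G06Rik (0.986 to 0.984), Tbx18 to Ccbe1, Col12a1, Col6a2, Plekhh2 and Rab40b (0.976 to 0.973), and Gata4 to Zdbf2, Mylk3, Isl1, Lingo1 and Dlx4os (0.979 to 0.974). Between members the coefficient was 0.990 for Wt1 and Gata6 and 0.951 for Wt1 and Bnc1, and 0.419 for Wt1 and Tcf21 and 0.161 for Tcf21 and Bnc1.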

How the data were processed

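Single-cell RNA libraries of sorted eYFP+ gWAT SVF cells were used, 1 per diet. The deposited matrices hold raw UMI counts per gene and barcode, whole numbers that the authors made without normalization. The other deposited files name genes and barcodes. The submitters' processing notes name Cell Ranger 4.0.0, STAR, bcl2fastq 2.17.1.14, Seurat 4.1.0 and the build mm10. Gene positions are lookups in GENCODE M21 (GRCm38), and promoters come from a set of windows at RefSeq start sites (GRCm38.p6), in which 3 of the 6 genes were matched. Wt1, Gata4 and Gata6 were not matched in the set used, which does not mean that RefSeq lacks them.

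Cells with 500 to 40000 UMIs, at least 100 genes and under 12.5% mitochondrial UMIs were kept. Types were set by marker UMIs per 10000 UMIs: collagens, Dcn and Pdgfra at 64 or mesothelial markers at 24 (mesenchymal), macrophage markers at 16, endothelial 24, mural 8, B cell 24, plasma cell 24, T cell 12, dendritic 6 and neutrophil 64. Mesenchymal cells were split at 10 (Dpep1, Pi16, Mmp2, Fbn1), then 8 (cycling), then 8 (keratins). No member was used. These limits were settled after the distributions of the markers were seen. No doublet caller was run, and cells positive for more than 1 lineage were left out as possible doublets. The members and gene lists were chosen with earlier results of these data known.

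Counts were summed per library and type. Levels carry exact Poisson, shares exact Clopper-Pearson and ratios exact conditional binomial 95% intervals, which cover counting error only. No test was run. Named genes were the 6 members, the 5 genes most correlated with each (at least 200 UMIs) and the 4 most abundant in the mesenchymal types of each list; 1 gene this rule named is not reported here. Shares were also read after thinning to 2000 UMIs. Alternatives were cells of at least 2000 UMIs, a mitochondrial share under 5%, mixed cells kept, keratin limits of 4 and 16, median-ratio scaling, the mean of per-cell values, other minimum counts and thinning to 5000 UMIs. The limit of 16 for fibroblastic cells, the ratios within marker bins and the cells with mural markers were added after seeing the data. The ratio calculation was tested on simulated data. Python 3.11.15, numpy 2.4.6, scipy 1.17.1 and pandas 2.3.3 were used.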

Additional observations from a re-analysis of the deposited data

Results flagged for a closer look

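The HFD to LFD ratios of 3 genes lay on opposite sides of 1 in cycling mesenchymal cells and in fibroblastic progenitor-like cells, with each interval clear of 1, and the difference between the types was not tested, as each diet has 1 library. For Wt1 the ratio in cycling cells was 1.45 times that in fibroblastic cells (1.24 against 0.850). For Gata6 it was 1.56 times (1.36 against 0.876), and for Bnc1 it was 3.13 times (1.66 against 0.532). Beside these values stands the share of fibroblastic cells with at least 24 marker UMIs per 10000, which was 11.3% in LFD and 56.3% in HFD, and its part in the difference was not tested beyond the ratios within marker bins given above. In those bins Gata6 stood at 1.12, 1.20 and 0.753, each with an interval that includes 1, so in 2 of the 3 bins it lay on the same side of 1 as in cycling cells. Bnc1 stood at 1.28 and 0.660 in the 2 bins that gave a ratio.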

How the results depend on the processing

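No paired analysis was possible because each diet has 1 library, and for the same reason no replicate could be left out. Of 158 HFD to LFD ratios recomputed for the 6 genes under other settings none turned direction, 138 stayed within their counting interval and 20 moved out of it. Median-ratio scaling gave 7 of these moves. A mitochondrial share below 5% gave 11 and left 807 LFD and 597 HFD keratin-low cells. There the Gata4 ratio in keratin-low cells was 2.82 and that of Gata6 1.51. Among 281 ratios between types, 1 turned, that of Wt1 in keratin-high against keratin-low HFD cells at 0.999 with a mitochondrial share below 5%. A further 20 moved without turning, 15 of them under that setting. Of 300 recomputed levels 45 moved, 33 of them under the same setting. The number of members at least 1.5-fold apart by diet became 2 in keratin-high cells with no minimum count, where Tcf21 had 0 and 1 UMIs, and became 1 in keratin-low cells with median-ratio scaling and likewise 1 with the keratin limit at 16. With the fibroblastic limit at 16 the Tcf21 diet ratio was 1.51 and that of Bnc1 0.302. The number of members called against keratin-low cells was the same under the 6 settings tried. Gata6 in macrophage-like cells became 3.64 CPM in LFD with a mitochondrial share below 5%, and 11.8 CPM in HFD with mixed-lineage cells kept. Thinned to 5000 UMIs, the cells with both Wt1 and Gata6 were 52.5% in LFD and 65.8% in HFD for keratin-high, 50.5% and 63.0% for keratin-low, and 36.0% and 28.3% for fibroblastic cells. The depth limits Gata4 in all types and Tcf21 outside the fibroblastic cells.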

Other observations

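Cells with mural markers, most of which also held endothelial markers and were left out as mixed, numbered 28 in the LFD and 123 in the HFD library. They were singled out after their values were seen. Tbx18 measured 24.1 CPM (4.97 to 70.5, 3 UMIs) and 47.7 CPM (32.2 to 68.0, 30 UMIs) in them, against 0.256 and 1.66 CPM in cells with endothelial markers alone. Wt1 in the same cells stood at 16.1 CPM (2 UMIs) and 9.53 CPM (6 UMIs), near its level of 10.5 and 9.16 CPM in cells with endothelial markers alone, and Bnc1 had 0 and 1 UMIs. Gata6 stood at 40.2 CPM (13.0 to 93.8, 5 UMIs) in LFD, above the 7.69 CPM (5.19 to 11.0) of cells with endothelial markers alone, and at 12.7 CPM (5.49 to 25, 8 UMIs) against 11.2 CPM in HFD. Tcf21 had 0 UMIs in LFD and 4 UMIs in HFD (6.36 CPM, 1.73 to 16.3), where cells with endothelial markers alone had 0.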
